A study of Mus musculus with 4 samples.

Results

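The genes described here are 10 genes that mark or maintain haematopoietic stem cells: Mecom, Hlf, Mllt3, Meis1, Prdm16, Procr, Slamf1, Fgd5, Gfi1 and Mycn. Every probe set annotated to exactly 1 of them was taken, which gave 24 of 45037 probe sets and 10 of 18193 named genes. The values are log2 intensities of Affymetrix arrays hybridized with RNA of foetal liver cells of mouse embryos at E13.5. The sort took cells with cKit and Sca1 but no lineage markers (LSK cells), a fraction that holds stem cells and multipotent progenitors. The study set 1 array labelled HES1-GFP positive against 3 arrays labelled HES1-GFP negative. All 4 samples were labelled female and of the genotype Hes1 GFP/WT, so that the GFP-negative cells too carried the reporter allele. The labels do not say how many embryos, litters or sorts lay behind each array, so p-values measure only the spread between these samples, which may be technical. The lone positive array has no spread of its own and was assumed to vary like the negative arrays.

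Haematopoietic stem cells of the foetal liver multiply while they keep the capacity to form every blood lineage. They do so with a circuit of transcription factors, chromatin proteins and surface receptors, much of which is turned down as they become multipotent progenitors. Members of this circuit are used in the mouse to mark stem cells (Procr, Slamf1, Fgd5, Mecom, Hlf) or are needed for stem cells to renew themselves (Mecom, Prdm16, Meis1, Mllt3, Gfi1). Hes1 encodes a repressor that is switched on by Notch signalling, whose DNA-binding partner is RBPJ.

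Hes1 itself went against the labels, and so the groups are named by their labels. Its log2 intensity read 6.57 on the array labelled positive, with 8.78, 9.07 and 6.70 on the negative arrays, always given in the order of replicates 1, 2 and 3. The positive array was thus the lowest of the 4 and lay next to negative replicate 3. These arrays were also the closest pair over all probe sets: 8.49% of probe sets lay at least 1 log2 unit apart between them, whereas the other 5 pairs had 11.7% to 12.8%. Kit, which encodes the cKit receptor used in the sort, read 10.13 on the array labelled positive, with 9.90, 9.72 and 9.68 on the negative arrays. That is the brightest of its 2 probe sets, with a difference of 0.37 log2 units, where their mean differed by 0.22. Of 5 LSK markers by their brightest probe sets, 2 (Kit and Cd34) lay above all negative arrays and 0 below them. Over all genes these shares were 23.6% and 23.0%. Myb, Ptprc and Runx1 lay within the range, and the median difference of the 5 was -0.03. Sca1 (Ly6a) had no probe set of its own here. The column medians were 74.8 to 76.1 on the linear scale, and the small number of arrays limits the precision of all values.

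No probe set of the 10 genes passed the test. limma gave 0 of 24 at an adjusted p under 0.05 in either direction (0.0% of all probe sets were called higher and 0.0% lower). The lowest unadjusted p was 0.0561, and 0 of 24 were under 0.05 unadjusted, where 4.51% of all probe sets were. The array labelled positive lay above all 3 negative arrays in 7 of 24 probe sets (29.2%, against 23.2% of all probe sets), below all 3 in 3 (12.5%, against 23.6%) and within their range in 14. It lay at least 1 log2 unit above the range in 0 of 24 (1.35% of all probe sets) and at least 1 below it in 0 (0.631%). The 7 above were both probe sets of Hlf, 2 of Meis1 and 1 each of Slamf1, Gfi1 and Mycn. The 3 below were 2 of Prdm16 and 1 of Mycn. Without negative replicate 3, 9 were above and 7 below both remaining arrays (34.4% and 32.5% of all probe sets). Leaving out negative replicate 1 gave 8 above and 5 below (30.04% and 34.5%), and leaving out negative replicate 2 gave 9 above and 6 below (31.3% and 31.0%).

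The median difference over the 24 probe sets, the array labelled positive minus the mean of the negative arrays, was 0.33 log2 units, against -0.01 over all probe sets. Of the 24, 17 had a difference above 0, against 48.4% of all probe sets. The median was 0.16 without negative replicate 3, against 0.002 over all probe sets, and 0.21 with an offset of 16 added before the logarithm. With each gene counted once, by its mean over probe sets, it was 0.25, against -0.00066 over all named genes.

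**Figure D1:**
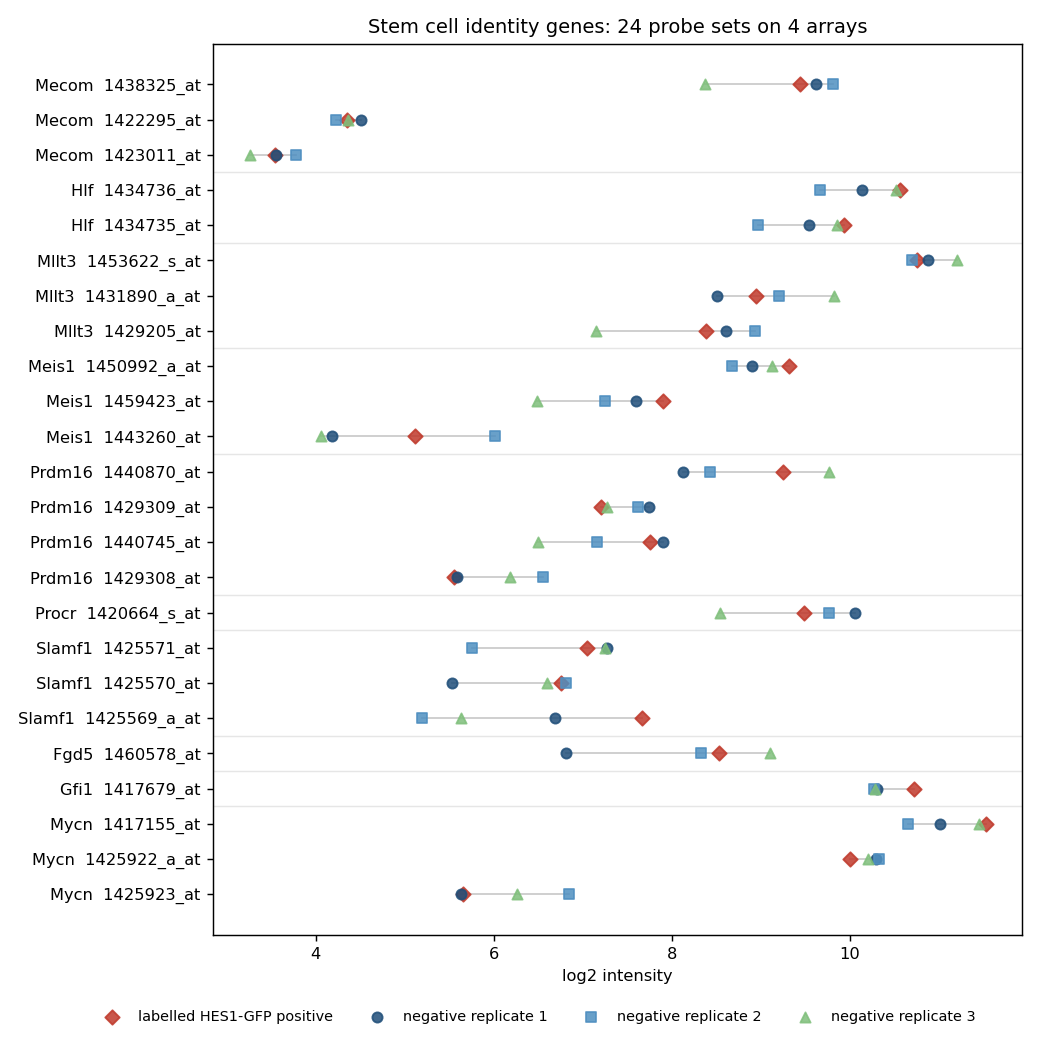
Log2 intensity (horizontal axis) of each of the 24 probe sets, with 1 point per array and a grey line over the range of the 4 arrays. The array labelled positive is the highest point in 7 probe sets, and the lowest point is the array labelled positive in 3, negative replicate 1 in 5, negative replicate 2 in 9 and negative replicate 3 in 7.

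Gfi1, a zinc finger repressor that restrains the proliferation of stem cells and steers myeloid and lymphoid fates, had the tightest negative arrays of the 24 probe sets. Its single probe set read 10.73 on the array labelled positive, with 10.30, 10.28 and 10.29 on the negative arrays. The groups did not overlap, and the SD of the negative arrays was 0.014 (n = 3). The difference of 0.44 log2 units (limma SE 0.19), a ratio of 1.35, had an adjusted p of 1.00 in limma. It was between 0.42 and 0.45 against each negative array. The SE is far above what the negative arrays alone would give because limma borrows the spread of all probe sets.

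Hlf encodes a leucine zipper factor of the PAR family and is a marker of stem cells in mouse and human. Its probe set 1434736_at read 10.57 on the array labelled positive, with 10.14, 9.66 and 10.52 on the negative arrays. Its other probe set, 1434735_at, read 9.94 on the array labelled positive, with 9.54, 8.97 and 9.85 on the negative arrays. Both had the positive array highest, negative replicate 3 just below it and negative replicate 2 lowest. The differences were 0.46 (SE 0.41) and 0.48 (SE 0.42) log2 units, and against negative replicate 3 alone 0.05 and 0.09. Without negative replicate 2 both were 0.24. Both probe sets are annotated to the same sequence record and are not independent evidence.

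Mycn, a MYC family activator of growth that acts beside Myc in haematopoietic stem cells, gave probe sets that disagreed. Probe set 1417155_at read 11.53 on the array labelled positive, with 11.01, 10.66 and 11.46 on the negative arrays, the same order as in Hlf. Probe set 1425922_a_at read 10.01 on the array labelled positive, with 10.29, 10.33 and 10.20 on the negative arrays, and there the positive array was the lowest. The differences were 0.48 (SE 0.38) and -0.27 (SE 0.20) log2 units, so that no direction can be given for the gene. The first was 0.29 without negative replicate 2. The third, 1425923_at, was dim (below the median level over all probe sets) and differed by -0.60 (SE 0.54), or by -0.90 without negative replicate 1 and -0.30 without replicate 2.

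Meis1, a homeobox factor that binds DNA with HOX and PBX proteins and is needed for definitive haematopoiesis, is read by 3 probe sets. Probe set 1450992_a_at read 9.32 on the array labelled positive, with 8.90, 8.68 and 9.13 on the negative arrays. Probe set 1459423_at read 7.90 on the array labelled positive, with 7.60, 7.25 and 6.49 on the negative arrays. The positive array was the highest in both, but negative replicate 3 came next in the first and last in the second. The differences were 0.42 (SE 0.27) and 0.79 (SE 0.51) log2 units, the second 0.48 without negative replicate 3. The dim 1443260_at read 5.11 on the array labelled positive, with 4.19, 6.01 and 4.06 on the negative arrays, a difference of 0.36 (SE 0.94) that was 0.08 without negative replicate 1, 0.99 without replicate 2 and 0.01 without replicate 3.

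Of the 5 genes with a probe set above all negative arrays, 4 are shown with the window around their annotated start because it holds a searched motif. The windows come from RefSeq (build GRCm38.p6) and run from 250 bases before to 50 after the start: Hlf at chr11:90390868-90391167, minus strand, Meis1 at chr11:19018920-19019219, minus strand, Slamf1 at chr1:171766882-171767181, plus strand and Mycn at chr12:12941787-12942086, minus strand. Capitals mark TGGGAA (the core of the RBPJ site), on either strand, in Hlf, Meis1 and Slamf1, and TGACAG (the MEIS site) in Mycn.
Hlf: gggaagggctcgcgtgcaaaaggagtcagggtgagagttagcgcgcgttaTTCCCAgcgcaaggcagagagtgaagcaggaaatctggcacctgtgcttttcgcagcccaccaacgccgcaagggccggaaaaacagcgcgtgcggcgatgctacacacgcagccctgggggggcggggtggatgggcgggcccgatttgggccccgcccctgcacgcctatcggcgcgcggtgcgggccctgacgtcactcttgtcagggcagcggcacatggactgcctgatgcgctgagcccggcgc
Meis1: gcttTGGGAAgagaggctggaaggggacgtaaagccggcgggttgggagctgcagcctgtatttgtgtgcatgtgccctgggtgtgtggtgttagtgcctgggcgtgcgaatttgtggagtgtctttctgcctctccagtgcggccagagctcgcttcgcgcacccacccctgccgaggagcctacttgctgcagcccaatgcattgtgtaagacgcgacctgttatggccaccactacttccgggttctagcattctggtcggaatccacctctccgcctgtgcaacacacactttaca
Slamf1: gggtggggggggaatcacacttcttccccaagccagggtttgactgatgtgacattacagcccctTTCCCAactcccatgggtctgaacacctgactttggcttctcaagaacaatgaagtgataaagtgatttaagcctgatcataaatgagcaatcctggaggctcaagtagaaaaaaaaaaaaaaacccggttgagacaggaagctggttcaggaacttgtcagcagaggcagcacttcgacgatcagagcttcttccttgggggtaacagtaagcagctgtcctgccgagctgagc
Mycn: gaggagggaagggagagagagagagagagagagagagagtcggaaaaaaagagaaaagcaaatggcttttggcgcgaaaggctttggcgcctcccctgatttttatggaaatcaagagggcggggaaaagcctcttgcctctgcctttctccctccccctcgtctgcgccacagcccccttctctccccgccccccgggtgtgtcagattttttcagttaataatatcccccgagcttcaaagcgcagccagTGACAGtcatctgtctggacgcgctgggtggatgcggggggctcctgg

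The 10 genes had 13 such windows in the table, with 2 starts each for Mecom, Mllt3 and Gfi1. On either strand, TGGGAA was in 3 of 13 windows, those of Hlf, Meis1 and Slamf1, and in 25.6% of all 32851 windows. TGACAG was in 4 of 13, those of Mycn and Fgd5 and 1 start each of Mecom and Mllt3, and in 19.2% of all. The N-box bound by HES repressors (CACNAG) was in 0 of 13 and in 42.5% of all. The E-box bound by MYC proteins (CACGTG) was in 0 of 13 and in 7.15% of all, and the site of GATA factors (AGATAA) in 0 of 13 and in 11.2% of all. Both Gfi1 windows held none of the 5 motifs, and no motifs overlapped in the windows printed. The 13 windows held 44.7% to 71.3% of G and C bases, most of them above the median of 52.7% over all windows. The shares were not matched for this composition. These counts concern only these letters in these windows.

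Mecom and Prdm16 are related zinc finger proteins with a PR domain, and loss of either depletes stem cells in mice. Mecom had a single probe set above the median level, 1438325_at, which read 9.44 on the array labelled positive, with 9.62, 9.81 and 8.37 on the negative arrays. Negative replicate 3 stood apart, 1.07 log2 units below the positive array and further below the others. The difference was 0.18 (SE 0.68), and it turned to -0.27 without negative replicate 3. The other Mecom probe sets, 1422295_at and 1423011_at, stayed between 3.26 and 4.51 on every array, where the median level over all probe sets was 6.23, and differed by -0.02 and 0.01.

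Prdm16 had 4 probe sets with different orders of the arrays. Probe set 1440870_at read 9.24 on the array labelled positive, with 8.13, 8.43 and 9.77 on the negative arrays, so that negative replicate 3 was the highest. Probe set 1440745_at read 7.75 on the array labelled positive, with 7.90, 7.16 and 6.50 on the negative arrays, so that negative replicate 3 was the lowest. The positive array was within the negative range in both, with differences of 0.47 (SE 0.76) and 0.56 (SE 0.62) log2 units. The first was 0.14 without negative replicate 1, 0.30 without replicate 2 and 0.97 without replicate 3, and the second 0.92 without replicate 1 and 0.22 without replicate 3. In the remaining pair the positive array was the lowest. Probe set 1429309_at read 7.20 there, with 7.74, 7.61 and 7.27 on the negative arrays, and the dim 1429308_at read 5.55 there, with 5.58, 6.55 and 6.18 on the negative arrays. Their differences were -0.34 (SE 0.28) and -0.56 (SE 0.45), with the second at -0.33 without negative replicate 2. The mean over the 4 probe sets differed by 0.03, a value in which opposite differences cancel.

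Mllt3 encodes AF9, a reader of acylated histones that works with DOT1L and the elongation machinery and sustains stem cells. Probe set 1429205_at read 8.38 on the array labelled positive, with 8.61, 8.94 and 7.15 on the negative arrays. Negative replicate 3 was again the lowest, 1.23 log2 units below the positive array. Probe set 1431890_a_at read 8.95 on the array labelled positive, with 8.51, 9.20 and 9.83 on the negative arrays, and 1453622_s_at read 10.75 on the array labelled positive, with 10.88, 10.70 and 11.20 on the negative arrays. In these negative replicate 3 was the highest. The 3 differences were 0.15 (SE 0.82), -0.23 (SE 0.59) and -0.18 (SE 0.28), and without negative replicate 3 the first turned to -0.39 and the second to 0.10, and the third was -0.04.

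Procr, the endothelial protein C receptor and a surface marker of foetal and adult stem cells, read 9.48 on the array labelled positive, with 10.06, 9.77 and 8.54 on the negative arrays. The positive array lay below replicates 1 and 2 and 0.94 above replicate 3. The difference was 0.02 (SE 0.70) log2 units, and it turned to -0.43 without negative replicate 3 and to -0.03 under cyclic loess normalization. Its probe set is of a kind that can read more than 1 transcript (suffix _s_at).

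Slamf1 (CD150), a receptor of the SLAM family used in the mouse to separate stem cells from progenitors, held the largest difference of the 24 probe sets. Probe set 1425569_a_at read 7.66 on the array labelled positive, with 6.69, 5.19 and 5.63 on the negative arrays, so that the positive array lay 0.97 above the next. The difference was 1.83 (SE 0.67) log2 units, a ratio of 3.54, with an unadjusted p of 0.0561 and an adjusted p of 1.00 in limma. The other probe sets, annotated to the same sequence record, had the positive array inside the negative range. Probe set 1425571_at read 7.05 on the array labelled positive, with 7.27, 5.75 and 7.25 on the negative arrays, and 1425570_at read 6.76 there, with 5.53, 6.81 and 6.60 on the negative arrays. The differences were 0.29 (SE 0.75) and 0.44 (SE 0.61) log2 units, the first of which turned to -0.21 without negative replicate 2, while the second was 0.05 without negative replicate 1.

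Fgd5, a guanine nucleotide exchange factor for CDC42 whose reporter marks stem cells in the mouse, had the widest negative arrays of the 24 probe sets. Its single probe set read 8.53 on the array labelled positive, with 6.81, 8.33 and 9.10 on the negative arrays, whose SD was 1.17 (n = 3). The positive array lay between replicates 2 and 3. The difference was 0.45 (SE 0.99) log2 units, and it turned to -0.18 without negative replicate 1.

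**Figure D2:**
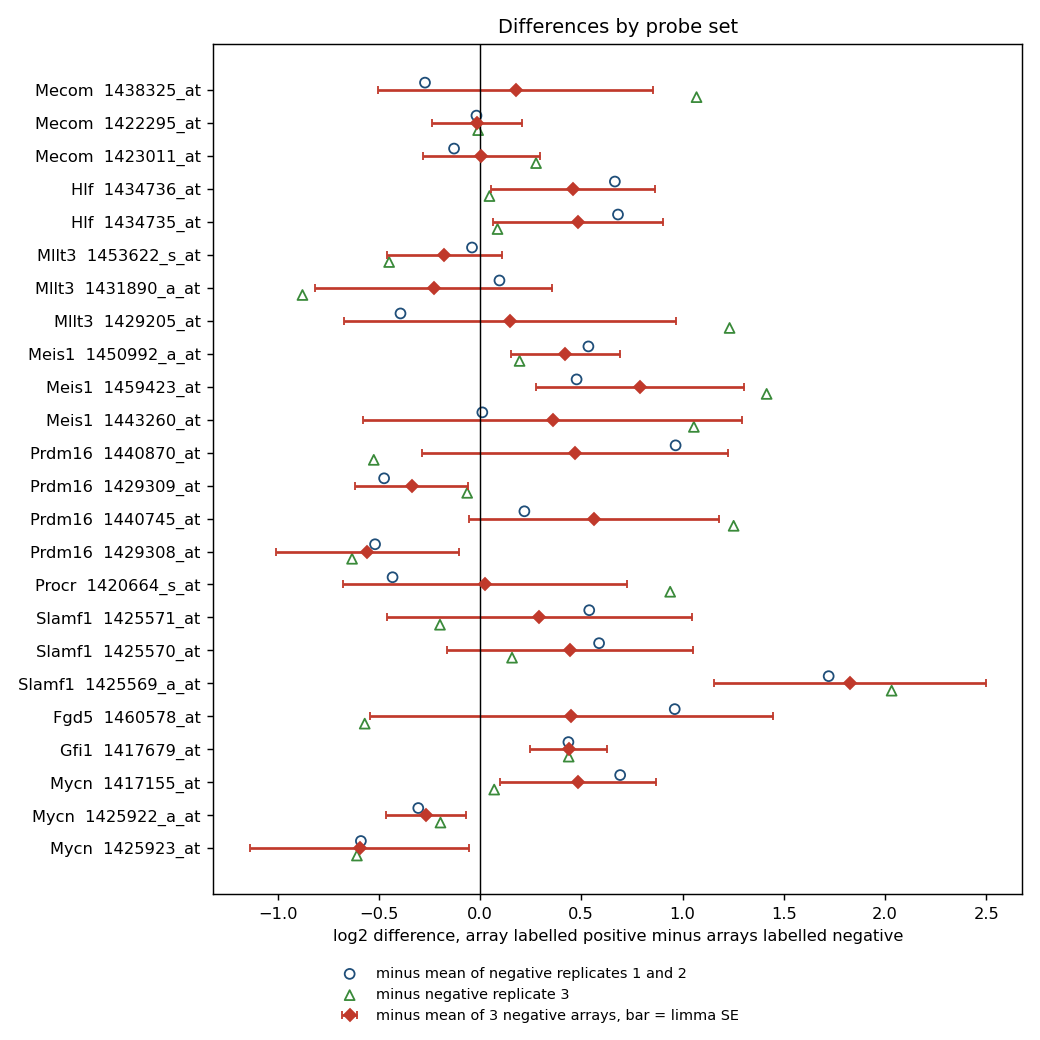
Log2 difference (horizontal axis) of the array labelled positive from the mean of the 3 negative arrays for each probe set, with limma's standard error as a bar, and from negative replicates 1 and 2 and from negative replicate 3 as open points. Gfi1 lies at 0.44 against all 3, whereas Mecom 1438325_at, Procr and Mllt3 1429205_at lie below 0 against replicates 1 and 2 and above 0 against replicate 3.

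The spread of the 24 probe sets over the arrays was set beside that of all probe sets. The 4 arrays spanned at least 1 log2 unit in 14 of 24 (58.3%, against 29.0% of all probe sets), and in 11 of the 19 above the median level (57.9%, against 34.4%). Negative replicates 1 and 3 lay at least 1 log2 unit apart in 10 of 24 (41.7%, against 12.6%). Negative replicates 1 and 2 did so in 6 of 24 (25.0%, against 11.7%), as did negative replicates 2 and 3 (against 12.8%). The array labelled positive did so in 3 of 24 against negative replicate 1 (12.5%, against 12.8%), in 4 against negative replicate 2 (16.7%, against 12.8%) and in 6 against negative replicate 3 (25.0%, against 8.49%). In all of these last 6 the positive array was the higher, where 4.45% of all probe sets were higher by that much and 4.04% lower. The 6 were Mecom 1438325_at, Mllt3 1429205_at, Meis1 1459423_at and 1443260_at, Prdm16 1440745_at and Slamf1 1425569_a_at, by 1.06 to 2.03 log2 units. Negative replicate 3 lay at least 1 log2 unit below the 3 other arrays in 2 of 24, Mecom 1438325_at and Mllt3 1429205_at (8.33%, against 0.839%). Probe sets of a gene are not independent, and these shares describe only these 4 arrays. Of the 7 genes with several probe sets, 4 (Mecom, Mllt3, Prdm16 and Mycn) had differences of both signs. Mecom is among them only through the dim 1422295_at, at -0.02 (SE 0.22), which turned to 0.014 under cyclic loess normalization.

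**Figure D3:**
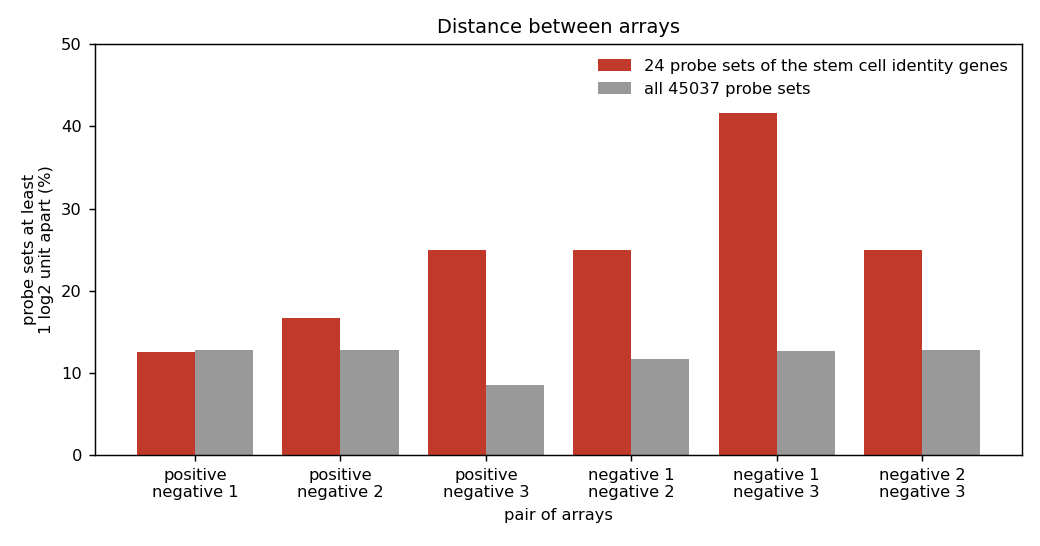
Share of probe sets at least 1 log2 unit apart (vertical axis, percent) in each of the 6 pairs of arrays, for the 24 probe sets and for all probe sets. The red bars reach 41.7% between negative replicates 1 and 3, and the pair of the array labelled positive with negative replicate 3 is at 25.0% for the 24 probe sets and 8.49% for all.

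Genes around the 10 members were taken by the brightest probe set of each gene. Of 131 such genes limma called 0, and 6 had an unadjusted p under 0.05 (Tek, Pbx3 and Slamf9 higher, Esam, Flt3 and Ccr7 lower), a share near the 4.51% of all probe sets. In a wider list of 37 stem cell genes, 11 lay above all negative arrays and 8 below them (23.6% and 23.0% of all genes), with a median difference of -0.02. Tek, the angiopoietin receptor of quiescent stem cells and of endothelium, read 7.36 on the array labelled positive, with 6.19, 6.04 and 6.72 on the negative arrays. Angpt1, its ligand, read 9.95 on the array labelled positive, with 7.29, 8.21 and 9.13 on the negative arrays. Both lay above the negative range. Esam, an adhesion molecule of stem cells and endothelium, lay below it, at 6.46 on the array labelled positive, with 7.86, 7.39 and 7.63 on the negative arrays. Vwf, the clotting protein of endothelium and of platelet-biased stem cells, also lay below it, at 5.21 on the array labelled positive, with 7.98, 7.05 and 6.14 on the negative arrays. Thy1, which mouse stem cells carry at a low level and T cells at a high one, had the largest difference of the list, -2.39, and read 6.06 on the array labelled positive, with 9.13, 9.44 and 6.79 on the negative arrays.

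Of 15 genes of multipotent and lymphoid primed progenitors, 0 lay above the negative range and 8 below it (23.6% and 23.0% of all genes). The median difference was -0.60, and -0.04 against negative replicate 3 alone. Flt3, the receptor that rises as stem cells turn into multipotent progenitors, read 11.07 on the array labelled positive, with 12.12, 11.95 and 11.63 on the negative arrays. Cd48, of the same list, went the other way, with a difference of 0.27 and a value within the range. By the brightest probe set of each gene, 4 of the 10 members lay above the range and 0 below it. The median of the 10 was 0.43, and 0.06 against negative replicate 3 alone. The 4 above included Mycn, whose mean over probe sets differed by -0.13. With every gene taken by its mean over probe sets the median was 0.25, and 3 of the 24 probe sets lay below the range.

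Partners of the members gave mixed values, where 23.6% of all genes lay above the negative range and 23.0% below it. Of 9 partners and relatives of MEIS1, 3 lay above the negative range and 0 below it. Pbx3, a DNA-binding partner, read 7.69 on the array labelled positive, with 6.82, 6.10 and 5.95 on the negative arrays. Hoxa9, the HOX protein most tied to MEIS1 in leukaemia, read 10.65 on the array labelled positive, with 10.06, 10.23 and 10.33 on the negative arrays. The third was Hoxa10. Of 10 PR domain proteins and co-repressors, 4 lay above and 1 below. Among the 4 was Ctbp2, a co-repressor that binds Mecom and Prdm16, at 9.84 on the array labelled positive, with 9.24, 8.08 and 9.45 on the negative arrays. Of the 3 bZIP genes next to Hlf, Tef lay above the range and Dbp and Nfil3 within it.

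Of 9 SLAM family genes, 2 lay above and 1 below (23.6% and 23.0% of all genes, here and for the lists that follow). Slamf9, dim by its mean over the 4 arrays, read 7.41 on the array labelled positive, with 4.68, 5.51 and 4.76 on the negative arrays. The difference was 2.43 log2 units. Cd48, which multipotent progenitors carry and stem cells lack, read 11.65 on the array labelled positive, with 11.25, 11.19 and 11.69 on the negative arrays. Of 11 MLLT3 partners, 1 lay above (Ell) and 3 below, among them Men1, at 8.96 on the array labelled positive, with 9.36, 9.63 and 9.54 on the negative arrays. Of 14 genes tied to GFI1, 2 lay above and 3 below, and Gfi1b, the close relative of Gfi1, was within the range at 10.66 on the array labelled positive, with 10.64, 9.72 and 10.87 on the negative arrays. Of 15 genes tied to MYC proteins, 3 lay above and 5 below. Myc read 12.50 on the array labelled positive, with 12.52, 12.34 and 12.42 on the negative arrays, whereas Mycl read 6.71 there, with 7.25, 8.52 and 7.38 on the negative arrays. Of 5 genes of the protein C pathway, 0 lay above and 1 below, and of 8 FGD and CDC42 genes 1 lay above and 4 below. Genes with several probe sets gave other sizes by their mean than by the brightest one. Of the genes given above by the brightest, the mean was 1.11 against 1.74 log2 units for Angpt1, 0.91 against 1.40 for Pbx3, 0.13 against 0.44 for Hoxa9, 0.31 against 0.92 for Hoxa10, 0.11 against 0.63 for Tef, 0.06 against 0.38 for Dbp, 0.40 against 0.83 for Ell, -0.26 against -0.55 for Men1 and -0.47 against -1.01 for Mycl. It went the other way elsewhere in these lists, with 0.70 against 0.37 for Skil, 0.55 against 0.23 for Mxd3, 0.98 against 0.56 for F2r and -1.15 against -0.95 for Notch1. Among the members, the mean was 0.85 against 0.29 for Slamf1 and -0.13 against 0.48 for Mycn.

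**Figure D4:**
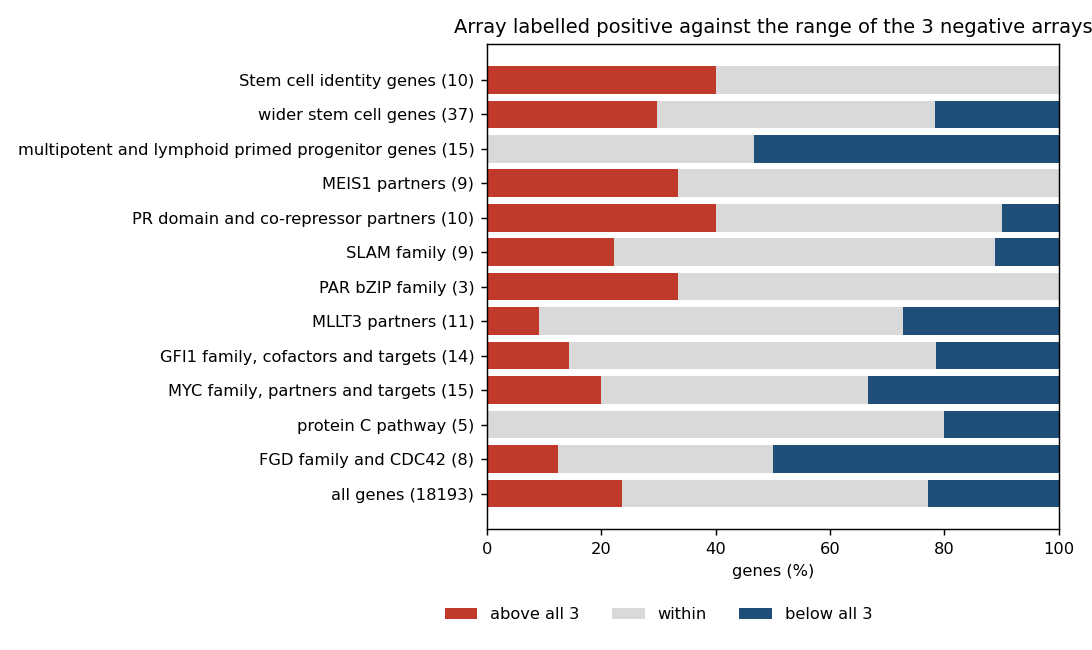
Share of genes (horizontal axis, percent) whose value in the array labelled positive lay above, within or below the 3 negative arrays, by list, with the number of genes measured in brackets. Each gene is given by its brightest probe set. Of the 10 stem cell identity genes, 4 lay above and 0 below, beside 23.6% and 23.0% of all genes.

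Several members are also made by other cells, Procr, Mecom and Fgd5 by endothelium among them, and markers of other cells had unequal levels on these arrays. The summed level of 6 endothelial markers was 9.50 on the log2 scale for the array labelled positive, with 11.84, 11.54 and 10.12 for the negative arrays, and 5 of 6 lay below the negative range and 0 above it. Cdh5, of this list, read 4.83 on the array labelled positive, with 9.71, 9.45 and 6.16 on the negative arrays. Tek, which is not in this list, lay above the range, as given above. The sum of 10 macrophage markers was 12.09 for the array labelled positive, with 14.65, 14.54 and 11.96 for the negative arrays, and 6 of 10 lay below the range and 0 above it. The sum of 7 B lineage markers was 11.86 for the array labelled positive, with 14.13, 14.18 and 11.85 for the negative arrays, and 5 of 7 lay below the range and 0 above it. The sum of 5 neutrophil and monocyte granule markers was 14.53 for the array labelled positive, with 12.81, 12.85 and 14.51 for the negative arrays, and 3 of 5 lay above the range and 0 below it. Of the 4 T lineage markers 2 lay below the range, of the 4 megakaryocyte markers 2 above it, of the 7 hepatoblast markers 2 above it, and of the 5 erythroid markers 0 outside it. Beside these counts, 23.6% of all genes lay above the range and 23.0% below it. Array intensities do not reach 0, so no marker could be called absent. The part of these cells in the values of the 10 genes was not tested, and fewer cells of a type and less RNA per cell cannot be told apart in bulk samples.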

How the data were processed

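Per the labels' protocols, 5 ng of RNA per sample was amplified (Nugen Ovation) and hybridized as biotin-labelled cDNA. The deposited values are intensities on a linear scale, made with RMA per the submitters' processing notes (software and version not given in the sources used here). RMA equalizes the arrays and so hides any change in the RNA content of a cell, and no detection calls were used.

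The log2 of each intensity was taken, without an offset. After 64 control probe sets were set aside, 45037 were tested. Of these, 34945 carried 1 gene symbol, 932 several and 9160 none, and all 24 probe sets of the members matched the RefSeq gene table by gene ID. The array labelled positive was compared with the 3 negative arrays in limma 3.58.1 (R 4.3.3; lmFit and eBayes, two-sided, Benjamini-Hochberg adjustment over all probe sets, threshold 0.05), with 2 residual and 1.80 prior degrees of freedom. On 5 simulated data sets of 45037 probe sets with 1 array against 3, the same fit called 0.0% of changes of 1 log2 unit, 1.2% of changes of 2 and 68.8% of changes of 4. The simulated noise was normal, independent between probe sets and arrays, and sized by limma's moderated variances. It held no differences shared by many probe sets, so the simulated shares need not hold for the real arrays. Probe sets outside the range of the negative arrays were counted as a description.

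The members and lists were chosen with earlier results of these data known. The rule named all 10 members, Hes1 and, from each list of related genes, up to 4 genes with the largest absolute moderated t and family members or direct partners, and part of these are given. Alternatives were cyclic loess, a filter on level, an offset of 16, probe set type, 1 probe set a gene, trended robust variances, and leaving out each negative replicate.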

Additional observations from a re-analysis of the deposited data

How the results depend on the processing

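No probe set of the 10 genes passed limma's test under any of the 9 alternatives, where the lowest adjusted p was 0.674, without negative replicate 3. Of 191 recomputed differences of the 24 probe sets, 180 kept their direction and 11 turned, and 16 probe sets kept it throughout. Leaving out a negative replicate gave, with the turned value at one end, -0.27 to 0.45 log2 units for Mecom 1438325_at, -0.085 to 0.058 for Mecom 1422295_at, -0.13 to 0.13 for Mecom 1423011_at, -0.39 to 0.50 for Mllt3 1429205_at, -0.56 to 0.096 for Mllt3 1431890_a_at, -0.43 to 0.33 for Procr, -0.21 to 0.55 for Slamf1 1425571_at and -0.18 to 0.96 for Fgd5. Under cyclic loess Mecom 1422295_at turned to 0.014 and Procr to -0.028, and with the offset of 16 Mecom 1423011_at turned to -0.0011. Why these values turned was not tested. Among 53 genes of the related lists, 3 of 461 values turned: leaving out a negative replicate gave -0.10 to 0.47 for Gfi1b and -0.047 to 0.019 for Thbd.

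The median difference of the 24 probe sets was 0.33, with 0.44 above the median level, 0.21 with the offset, 0.40 without _x_at, _s_at and _a_at probe sets, 0.43 with 1 probe set a gene, and 0.16 to 0.27 when a negative replicate was left out. The median over genes was 0.25, with 0.33 above the median level, 0.37 without those probe sets and 0.43 with 1 probe set a gene. The counts outside the negative range were 10 in all, 7 above and 3 below. With 1 probe set a gene they were 4, 4 and 0 of 10, and cyclic loess gave 5 below. Leaving out a negative replicate gave 13 to 16 in all, 8 to 9 above and 5 to 7 below, since 2 arrays span less than 3, and 0 to 1 at least 1 log2 unit above, the 1 being Slamf1 1425569_a_at without replicate 1. The cause of the other moves was not tested. The median SD of the negative arrays was 0.587 log2 units for the 24 probe sets, and 0.661 for the 19 above the median level. Over all probe sets on the arrays it was 0.251, and 0.322 for those above the median level. Without detection calls the background of dim probe sets was not measured here. No paired analysis was possible because the positive group has 1 array and the labels do not say which arrays, if any, were paired.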
